A study of Ovis aries with 6 samples.

Results

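PLIN2 and the genes that coat, fill and empty lipid droplets were followed in ovary RNA of 2 sheep breeds. The group was defined by gene symbol as PLIN2, LPL and LIPE together with, where present, PLIN1, PLIN3, PLIN4, PLIN5, PNPLA2, ABHD5 and DGAT1, 10 genes in all. Of these, 7 were listed by symbol in a table of 14480 genes, of which 10189 rows carry a symbol: PLIN2, PLIN3, PLIN4, PLIN5, DGAT1, LIPE and LPL. The other 3, PLIN1, PNPLA2 and ABHD5, had no row under these symbols. Libraries of polyadenylated RNA had been made from ovaries taken during estrus, 3 from Hu sheep, a prolific Chinese breed, and 3 from Mongolian sheep, in which single births prevail. Neither breed carries a treatment or an engineered allele according to the labels, which give no age and do not say whether the 3 libraries of a breed came from separate animals. The title of the series speaks of exosomes, whereas every sample is labelled as ovary. Values are FPKM, fragments scaled by transcript length and by library total, so levels of different genes can be set side by side. Triplets of values follow the replicate numbers 1, 2 and 3.

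Cells store fatty acids and cholesterol as triglycerides and sterol esters in droplets whose surface is coated by perilipins. PLIN2 coats droplets in most cell types and its protein is stable only when bound to a droplet, and PLIN3 moves from the cytosol onto young droplets. PLIN1 and PLIN4 are known from fat, and PLIN5 from muscle and other oxidative tissues. DGAT1 makes triglyceride. PNPLA2 with its activator ABHD5 starts droplet lipolysis, LIPE (hormone-sensitive lipase) continues it and also splits sterol esters, and LPL acts outside the cell, where it frees fatty acids from circulating lipoproteins. In the ovary, steroid-producing cells hold droplets of cholesteryl ester as a store for hormone synthesis.

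The libraries differed in how many genes they listed above 0, from 6500 to 13342 in Hu and from 10547 to 11463 in Mongolian, and between 53.3% and 79.7% of each library's summed FPKM came from the 2 most abundant genes. Read counts were not used here and the depth behind each value is unknown, so a 0 is described only as listed at 0. In whole tissue, fewer cells of a type and less RNA per cell cannot be told apart.

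PLIN2 had the highest mean FPKM of the group over the 6 libraries. It stood at 23.5, 27.0 and 45.5 FPKM in Hu, against 2.91, 7.89 and 10.999 FPKM in Mongolian ovary. The breeds did not overlap: the lowest Hu library was 2.14 times the highest Mongolian library. Within a breed PLIN2 varied 1.94-fold among the Hu libraries and 3.78-fold among the Mongolian libraries, with Mongolian 1 lowest of all. The mean was 31.99 ± 11.8 in Hu, against 7.27 ± 4.08 in Mongolian (SD, n = 3 each), a ratio of means of 4.40, and the log2 difference of FPKM + 1 was 2.09 (standard error 0.59). PLIN2 had been chosen because an earlier look at the same libraries had shown this difference, so all differences between breeds within the group are given as descriptions, with no test.

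Ranks within a library do not depend on the scaling between libraries. PLIN2 ranked 498th, 489th and 550th among all genes in Hu 1, 2 and 3, and 5555th, 2161st and 1920th in Mongolian 1, 2 and 3. All 3 Hu ranks were therefore closer to the top than any Mongolian rank, although Hu 1 listed 6500 genes and Hu 3 listed 13342. As a share of the genes listed above 0, those ranks lay 7.66%, 6.13% and 4.12% from the top in Hu and 52.7%, 18.9% and 18.1% from the top in Mongolian.

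PLIN3, the coat protein of young droplets, had the opposite sign. It stood at 0, 0 and 6.91 FPKM in Hu, against 6.88, 9.86 and 4.25 in Mongolian. The breeds overlapped through Hu 3 alone, which lay within the Mongolian range. The log2 difference of FPKM + 1 was -1.94 with a standard error of 0.87, and it rests on the zeros of Hu 1 and Hu 2, the libraries with the fewest listed genes. The same pattern, 0 in Hu 1 and Hu 2 and above 0 in the other 4 libraries, was found in 1029 of 9971 genes (10.3%), and in 25 of the 638 genes (3.92%) that lay between 4 and 10 FPKM in all 3 Mongolian libraries, a window chosen after the values of PLIN3 were seen. With the number of listed genes per library as a covariate the log2 difference of PLIN3 was -1.18 (standard error 0.61), the value nearest to 0 under any setting, against 2.31 (standard error 0.52) for PLIN2 in the same fit.

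PLIN4 and PLIN5 were near the bottom of the table. PLIN4, a perilipin known from fat cells, stood at 1.13, 0 and 0.166 FPKM in Hu, against 0, 0.142 and 0.353 in Mongolian. PLIN5, the perilipin of oxidative tissues, was listed at 0 in all 3 Hu libraries and at 0, 0.688 and 0 in Mongolian. Each was above 0 in no more than 4 libraries, and their levels in the breeds overlapped.

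**Figure D1:**
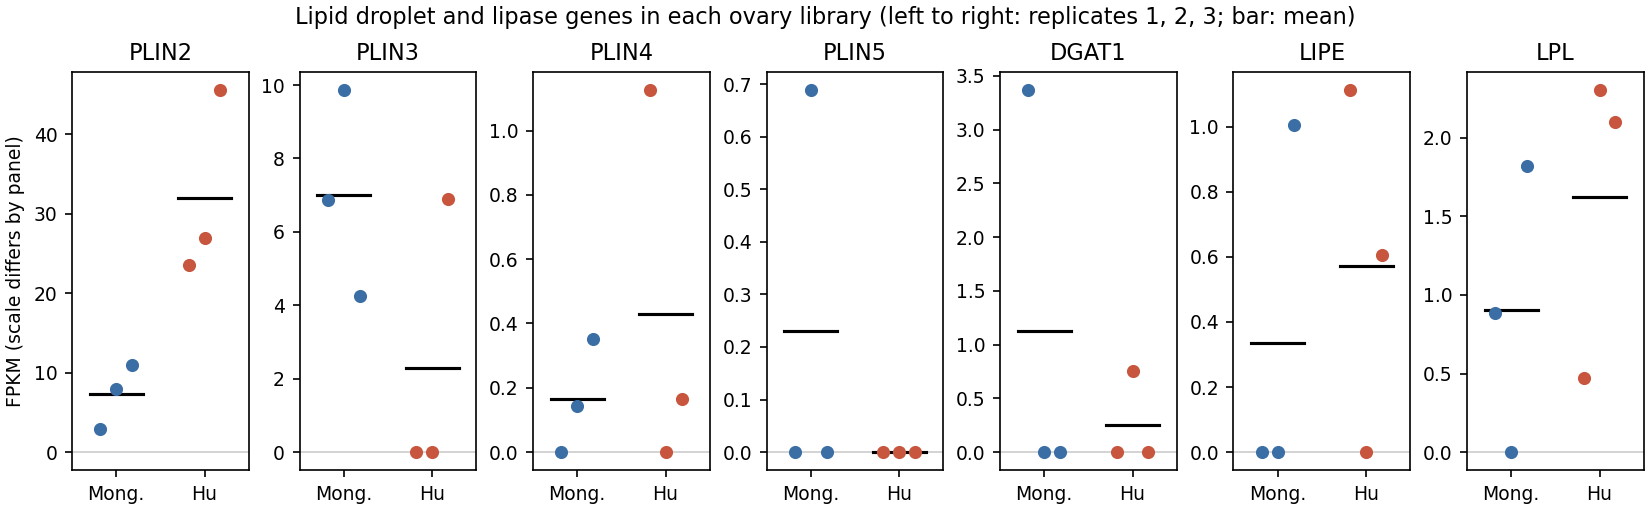
FPKM (vertical axis, a separate scale in each panel) of the 7 listed genes in Mongolian (blue) and Hu (red) ovary; each point is a library and the bar is the breed's mean. PLIN2 is the gene whose breeds do not overlap, with Hu at 23.5 to 45.5 and Mongolian at 2.91 to 10.999, while the other 6 overlap.

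The makeup of the perilipin pool differed from library to library. PLIN2 made up 95.4%, 100% and 86.5% of the summed perilipin FPKM in Hu and 29.7%, 42.5% and 70.5% in Mongolian. The shares in Hu 1 and Hu 2 include PLIN3 listed at 0, in the libraries with the fewest listed genes. PLIN1, without a row under its symbol, is not in the sum, and the shares reuse the values by which PLIN2 was chosen. PLIN3 was the higher of the pair in Mongolian 1 and Mongolian 2, where PLIN2 stood at 0.423 and 0.801 of its level, and PLIN2 was the higher in the other 4 libraries, by 2.59 times in Mongolian 3 and 6.59 times in Hu 3. The summed perilipin level itself was 24.6, 27.0 and 52.6 FPKM in Hu, against 9.78, 18.6 and 15.6 in Mongolian.

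**Figure D2:**
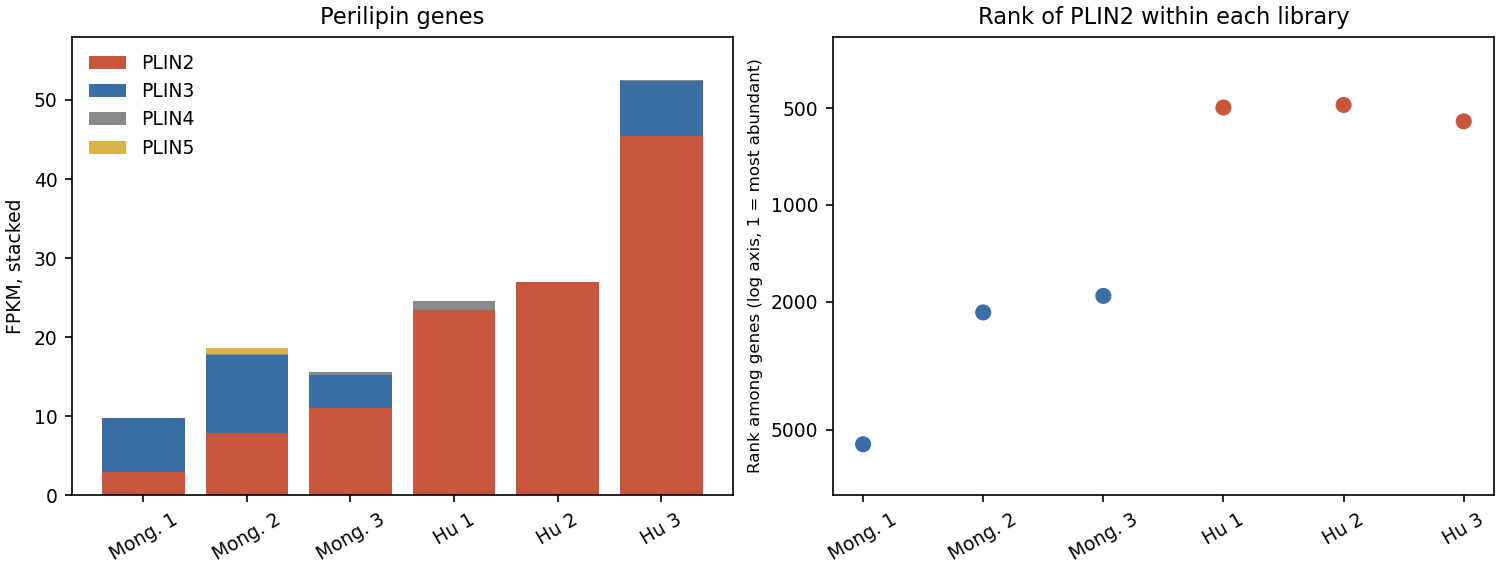
Left, stacked FPKM of the 4 listed perilipin genes in each library; right, the rank of PLIN2 among all genes in each library on a log axis, with 1 as the most abundant gene. PLIN2 fills 86.5% to 100% of the bar in Hu and 29.7% to 70.5% in Mongolian, and its rank lies between 489 and 550 in Hu and between 1920 and 5555 in Mongolian.

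The enzyme genes of the group were low and sporadic. DGAT1, which joins a fatty acid to diacylglycerol, stood at 0, 0.752 and 0 FPKM in Hu, against 3.37, 0 and 0 in Mongolian, so a single library per breed carried it. LIPE, the hormone-sensitive lipase, stood at 1.11, 0 and 0.606 in Hu, against 0, 0 and 1.01 in Mongolian. The LIPE values of the breeds overlapped, and the log2 difference was 0.25 (standard error 0.50).

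LPL, the lipase of the vessel wall, stood at 0.470, 2.30 and 2.10 FPKM in Hu, against 0.885, 0 and 1.82 in Mongolian. Its highest values were in Hu 2 and Hu 3 and its lowest in Mongolian 2, and the breeds overlapped. The log2 difference was 0.50 with a standard error of 0.67. LPL averaged 1.62 ± 1.005 in Hu, against 0.902 ± 0.911 in Mongolian (SD, n = 3 each), a gap smaller than the spread within either breed.

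By mean FPKM over the 6 libraries, the order was PLIN2 (19.6), PLIN3 (4.65), LPL (1.26), DGAT1 (0.686), LIPE (0.454), PLIN4 (0.298) and PLIN5 (0.115). Every pair of neighbours in this order overlapped over the 6 libraries. PLIN2 lay above PLIN3 in 4 of 6 libraries, PLIN3 above LPL in 4, LPL above DGAT1 in 4, DGAT1 above LIPE in 2, LIPE above PLIN4 in 2 and PLIN4 above PLIN5 in 3. The order is therefore loose, also at the top, since PLIN3 was the highest gene of the group in Mongolian 1 and Mongolian 2. PLIN2 led the group in all 3 Hu libraries, where the next gene was PLIN4 at 1.13 FPKM in Hu 1, LPL at 2.30 in Hu 2 and PLIN3 at 6.91 in Hu 3.

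Of the 7 listed genes, 4 passed the filter of at least 0.5 FPKM in at least 3 libraries (PLIN2, PLIN3, LPL and LIPE) and entered the limma fit over 9971 genes. PLIN4, PLIN5 and DGAT1 did not. In that fit 0 of the 9971 genes (0%) passed a Benjamini-Hochberg adjusted p of 0.05, while 372 (3.73%) lay under 0.05 before adjustment. Values that did not overlap between breeds were higher in Hu in 187 genes (1.88%) and lower in Hu in 603 (6.05%), or 7.92% counting both directions. PLIN2 was the member among the former, and nothing is read from that count because the choice of PLIN2 used this contrast. Of the 9971 genes, 26 had a larger positive log2 difference than PLIN2. The median log2 difference over all genes was -0.28, and 32.3% of genes had a positive one. Relative to that median, PLIN2, LPL and LIPE lay on the Hu side and PLIN3 on the Mongolian side.

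The signs of PLIN2, PLIN3 and LPL held under each of the 21, 20 and 19 alternative settings in which they could be fitted. Settings that change only the filter, the replicate block or the eBayes variance cannot move these estimates. Because the breeds do not overlap in PLIN2, leaving out libraries could not turn its sign either. The log2 difference of PLIN2 ranged from 1.62 (without Mongolian 1) to 2.43 (without Mongolian 3). For PLIN2, median-of-ratios scaling gave 2.23, quantile normalization 2.15 and a common library sum 2.38. With single libraries left out, PLIN3 ranged from -2.94 without Hu 3 to -1.45 without Hu 1 or Hu 2. LPL ranged from 0.10 without Mongolian 2 to 0.87 without Hu 1, and LIPE from 0.01 without Hu 1 to 0.59 without Mongolian 3. LIPE turned negative in 2 of its 19 settings, at -0.04 with array weights and at -0.33 with Hu 1 and Hu 3 left out together. With smaller pseudocounts the genes that hold zeros moved most: at a pseudocount of 0.01 PLIN3 stood at -6.22, LPL at 2.39 and LIPE at 2.03, against 2.28 for PLIN2, which has no zero.

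**Figure D3:**
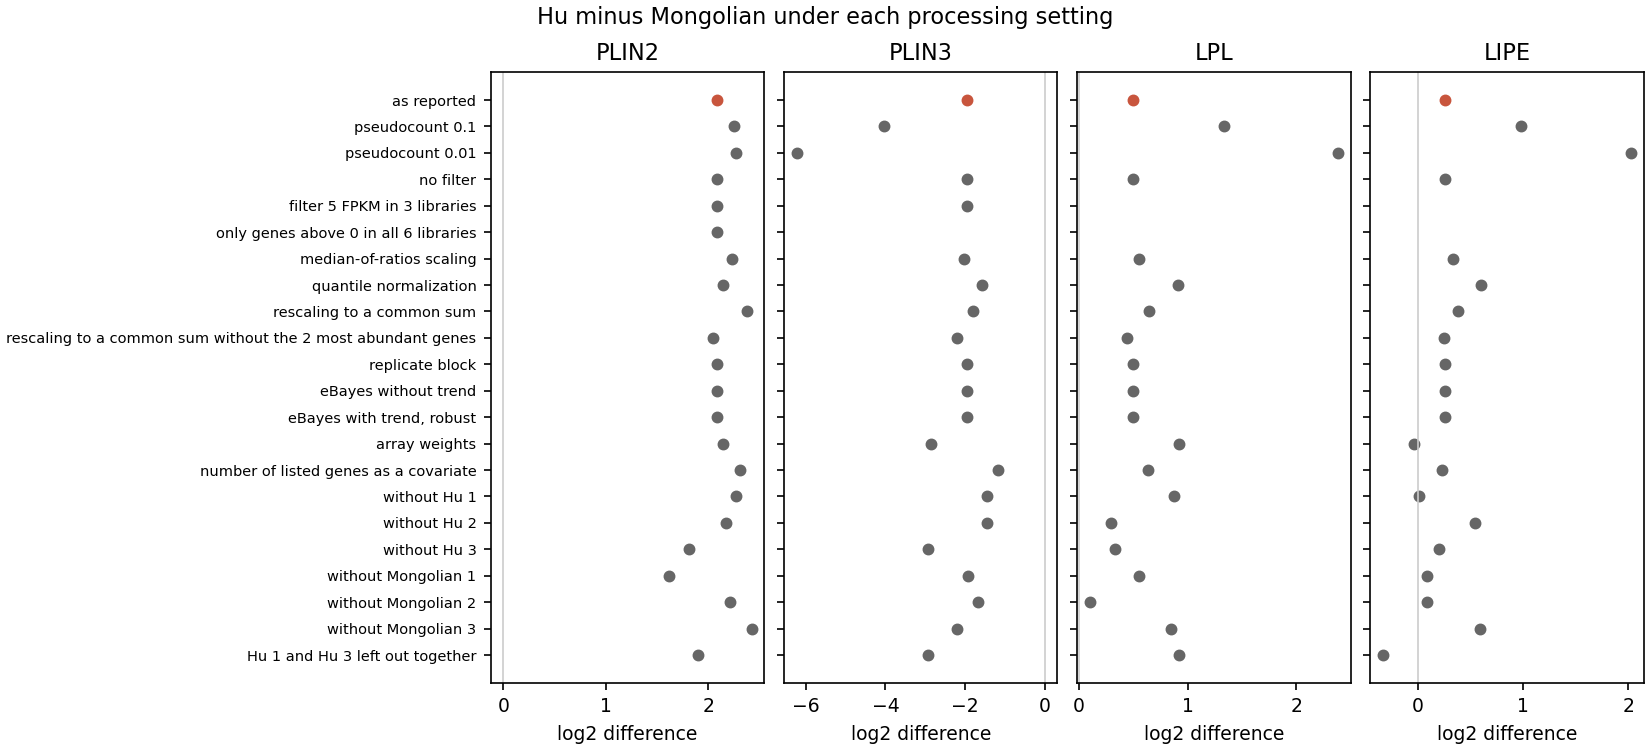
Log2 difference, Hu minus Mongolian (horizontal axis, a separate scale in each panel), of the 4 genes that passed the filter under each processing setting; the red point is the value reported and an empty row means that the gene did not pass that setting's filter. PLIN2 stays between 1.62 and 2.43, while PLIN3 spans -6.22 to -1.18 and LIPE crosses 0.

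Genes with the nearest profile to PLIN2 were found by the root mean square difference of log2(FPKM + 1) over the 6 libraries, each gene centred on its own mean. Over 7571 genes with a symbol the median distance from PLIN2 was 1.40, and PLIN2 itself spread 1.18 around its mean. The nearest was VPS36, a subunit of the ESCRT-II sorting complex, at a distance of 0.18. MRPS7 of the small mitochondrial ribosomal subunit lay at 0.32 and the thioredoxin-like gene TXNL1 at 0.39. VPS36 stood at 5.19, 5.29 and 11.8 FPKM in Hu, against 0, 2.05 and 2.18 in Mongolian. MRPS7 stood at 5.99, 7.72 and 8.199 in Hu, against 0.652, 1.40 and 2.46 in Mongolian. None of these 3 is a lipid droplet gene of the lists used here, and in each the breeds did not overlap, which follows from the choice by likeness to PLIN2.

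LPL and LIPE had neighbours of their own. Nearest to LPL were CHKA, the choline kinase that starts phosphatidylcholine synthesis (0.19), the histone deacetylase gene HDAC3 (0.21), GFPT2 of the hexosamine pathway (0.23) and ARHGEF6, an exchange factor for Rac (0.23), against a median distance of 0.86. Nearest to LIPE were NCSTN, a subunit of gamma-secretase (0.13), FRYL (0.14), the potassium-chloride cotransporter gene SLC12A4 (0.16) and PLVAP, a gene of fenestrated endothelium (0.16), against a median of 0.87. The LIPE pattern, high in Mongolian 3, Hu 1 and Hu 3 and low in the other 3 libraries, cuts across breeds: SLC12A4 stood at 6.20, 1.41 and 3.87 FPKM in Hu, against 2.03, 2.03 and 5.46 in Mongolian. These likenesses rest on 6 libraries that share depth and scaling and are descriptions.

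**Figure D4:**
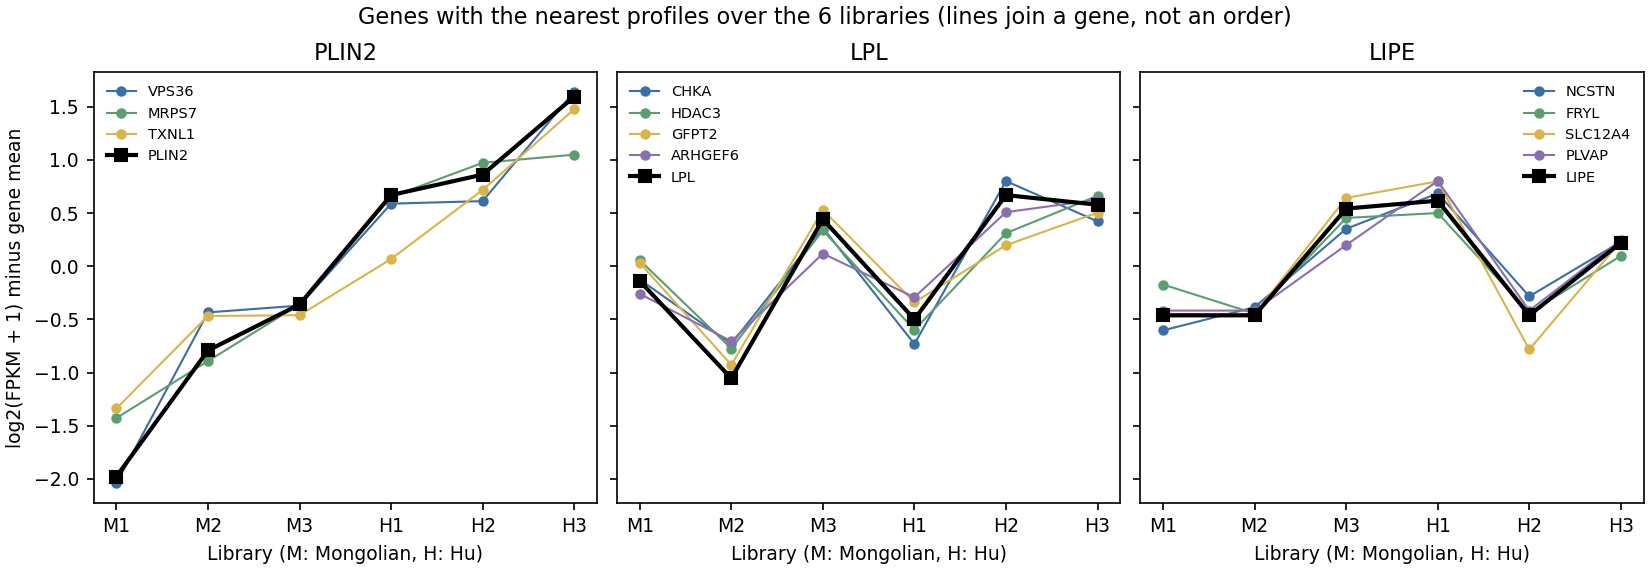
Centred log2(FPKM + 1) of PLIN2, LPL and LIPE (black squares) and of genes nearest to each (3 for PLIN2, 4 for LPL and LIPE; coloured circles) in the 6 libraries; lines join the values of a gene and carry no order. PLIN2 and its neighbours are lowest in Mongolian 1 and higher in the Hu libraries, whereas LPL dips in Mongolian 2 and Hu 1 and LIPE in Mongolian 1, Mongolian 2 and Hu 2.

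Other genes of lipid storage, breakdown, uptake and their control were followed in 9 lists of 191 genes, of which 136 were listed and 108 passed the filter. Of the 108, 0 passed the limma test adjusted over all genes, with a lowest adjusted p of 0.998, and 4 (3.70%) had an unadjusted p under 0.05, near the 3.73% of all genes. None of the 108 was higher in Hu in every library, where 1.88% of all genes were, and 12 (11.1%) were lower in Hu without overlap, where 6.05% of all genes were. The 4 with an unadjusted p under 0.05 were FABP5, with a positive difference, and PPARG, SCD5 and PFKFB3, with negative ones. A positive log2 difference was found in 27 of the 108 (25.0%, against 32.3% of all genes), with a median of -0.32 against -0.28. That split depended on scaling and on Hu 1 and Hu 3: 51 were positive with quantile normalization, 45 with a common library sum, 38 with median-of-ratios scaling, 51 without Hu 1 and 17 without Hu 3, when 51.3%, 44.4%, 36.2%, 50.8% and 18.1% of all genes were. The median of all genes under these settings was 0.02, -0.09, -0.23, 0.01 and -0.66. Counts and medians of single lists below are to be read beside these shifts of the whole table. Genes lower in Hu without overlap numbered 44 without Hu 3 (40.7%, against 32.003% of all genes) and 21 without Mongolian 2 (19.4%, against 13.6%), and those higher in Hu numbered 9 without Hu 1 (8.33%, against 10.2%).

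**Figure D5:**
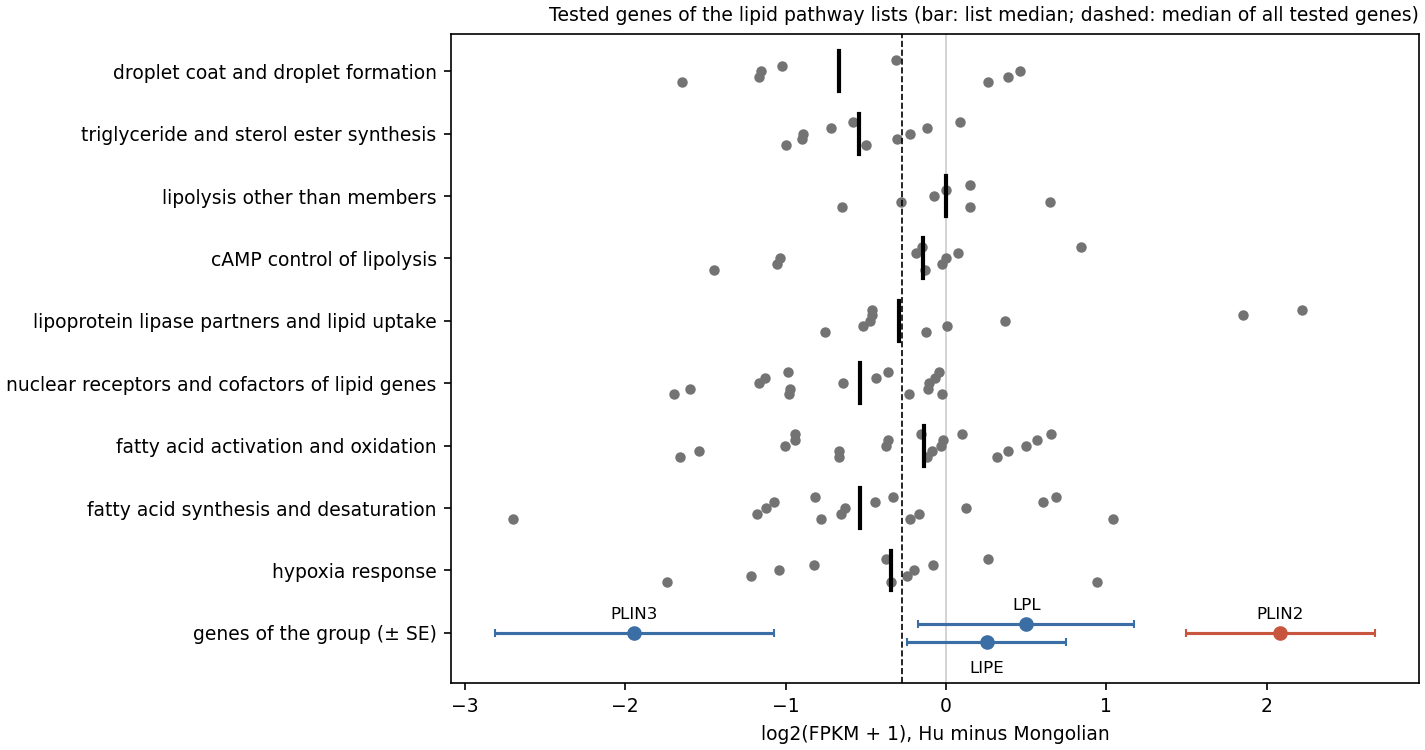
Log2 difference of FPKM + 1, Hu minus Mongolian, of the 108 tested genes in 9 lipid lists (grey points; black bars are list medians) and of PLIN2, PLIN3, LPL and LIPE with their standard errors; the dashed line is the median of all 9971 tested genes. PLIN2, at 2.09, lies to the right of every list gene except FABP5, at 2.22.

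Droplet formation genes were mixed in sign. Of 8 tested genes 3 had a positive difference and the median was -0.67, with 1 positive and a median of -1.23 without Hu 3 and medians of -0.25 without Hu 1 and -0.30 without Hu 2. RAB18, a GTPase of the droplet surface, averaged 14.1 ± 13.3 FPKM in Hu, against 9.31 ± 3.54 in Mongolian, with Hu 3 at 29.4. SPART averaged 11.3 ± 9.56 and 11.8 ± 2.75, and METTL7A, a droplet-associated methyltransferase, 3.99 ± 2.59 and 3.23 ± 2.83. BSCL2, the seipin that organises budding droplets, had the lowest value of the list at a log2 difference of -1.65: it was listed at 0 in Hu 1 and Hu 2, at 4.33 FPKM in Hu 3 and at 2.34, 6.12 and 5.91 in the Mongolian libraries, the layout seen in PLIN3, and was singled out after its values were seen.

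Genes of triglyceride and sterol ester synthesis, the pathway of DGAT1, had a positive difference in 1 of 10 and a median of -0.54. The count was 4 of 10 without Hu 1, 3 without Hu 2 or without Mongolian 2, and 0 without Hu 3 or without Mongolian 1, with medians from -0.88 (without Hu 3) to -0.29 (without Hu 1). GPAT4, which starts glycerolipid synthesis, stood at 3.83, 1.62 and 4.10 FPKM in Hu, against 4.25, 4.42 and 17.0 in Mongolian. LPIN2, a phosphatidate phosphatase, stood at 1.28, 3.46 and 4.70 in Hu, against 4.86, 4.93 and 6.41 in Mongolian. Neither gene's breeds overlapped, although the nearest values were close, and neither passed the limma test (adjusted p = 0.998 each). AGPAT1, an acyltransferase of the same route, averaged 1.82 ± 0.952 in Hu, against 2.90 ± 0.687 in Mongolian. DGAT2, the second enzyme known to make triglyceride, was above 0 in Hu 3 alone, at 0.358, and was named after its value was seen.

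Lipolysis genes other than LPL and LIPE included G0S2, which is not a lipase. A positive difference was found in 4 of the 7 tested, with a median of 0.00 as deposited. That balance changed with the setting: 6 of 7 were positive with quantile normalization (median 0.34) and without Hu 1 (0.27), and 2 of 7 without Hu 3 (-0.37) and without Mongolian 2 (-0.27). The median of all genes moved as well. Relative to it, the list median was 0.28 as deposited, 0.32 with quantile normalization and 0.26 without Hu 1. It was 0.28 without Hu 3 and 0.03 without Mongolian 2. DDHD2, a triglyceride lipase known from brain, averaged 4.18 ± 3.996 FPKM in Hu, against 3.47 ± 0.186 in Mongolian. LIPA, the lysosomal acid lipase, averaged 4.29 ± 2.80 and 2.62 ± 2.11, and MGLL, the monoglyceride lipase that ends lipolysis, 2.58 ± 2.50 and 3.59 ± 1.64. All 3 overlapped between breeds.

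The cyclic AMP arm, which activates LIPE and perilipins through protein kinase A, had a positive difference in 3 of 10 and a median of -0.14, but 6 of 10 and 0.11 without Hu 1, 7 of 10 and 0.24 with quantile normalization, 5 of 10 and -0.17 without Hu 2, and medians of -0.72 without Hu 3 and -0.41 without Mongolian 3. Its most abundant genes encode regulatory subunits of the kinase: PRKAR2B averaged 24.2 ± 22.1 FPKM in Hu, against 40.9 ± 10.5 in Mongolian, PRKAR2A 25.04 ± 17.4 and 13.6 ± 8.32, and PRKAR1A 15.5 ± 10.7 and 13.7 ± 1.72. The adenylyl cyclase genes ADCY3 and ADCY6 were lower in every Hu library. ADCY3 stood at 0, 0.460 and 1.53 in Hu, against 2.77, 3.399 and 3.52 in Mongolian, and ADCY6 at 0.696, 0.788 and 0.672 in Hu, against 2.66, 1.45 and 3.87 in Mongolian. Neither passed the limma test (adjusted p = 0.998 each).

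Partners of LPL and carriers of lipid had a positive difference in 4 of 10 and a median of -0.29. Without Mongolian 3 the median turned to 0.12, with 5 of 10 positive, and it was -0.47 without Mongolian 2. FABP5, a cytosolic fatty acid carrier, had a log2 difference of 2.22 (standard error 0.92), the value closest to that of PLIN2 in any list. It stood at 11.1, 25.0 and 50.3 FPKM in Hu, against 0, 22.5 and 5.76 in Mongolian, so Mongolian 2 lay above Hu 1 and close to Hu 2. FABP7, a related carrier, averaged 11.1 ± 11.9 and 1.496 ± 2.59 and was listed at 0 in Hu 1, Mongolian 1 and Mongolian 3. LRP1, a lipoprotein receptor, averaged 20.3 ± 5.54 in Hu, against 28.2 ± 6.71 in Mongolian. ANGPTL4, a secreted inhibitor of LPL and a known target of PPAR receptors, stood at 5.14, 2.39 and 5.42 in Hu, against 6.82, 5.50 and 5.88 in Mongolian, without overlap but with Hu 3 and Mongolian 2 nearly equal.

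Nuclear receptors, cofactors and other transcription factors of lipid genes had a negative log2 difference in 16 of 16 tested genes as deposited. Their median was -0.54. However, 4 of the 16 turned positive with median-of-ratios scaling, 5 with quantile normalization and 6 with a common library sum. With single libraries left out, 6 turned positive without Hu 1, 4 without Mongolian 1, 2 without Mongolian 3 and 1 without Hu 2 or without Hu 3. The median stayed negative in each of these, from -1.12 without Hu 3 to -0.31 without Hu 1. Relative to the median of all genes it was -0.26 as deposited, and from -0.47 without Hu 3 to -0.11 without Mongolian 3 in these settings. PPARG, the fat cell receptor known to act on PLIN2 and LPL, stood at 0, 0 and 2.19 FPKM in Hu, against 3.94, 4.23 and 3.22 in Mongolian. Its zeros fall in Hu 1 and Hu 2, as in PLIN3 and 10.3% of all tested genes. A link between PPARG and PLIN2 was not tested. MLXIP, a glucose-sensing factor, stood at 0, 6.93 and 3.36 in Hu, against 7.32, 8.77 and 10.8 in Mongolian. The limma adjusted p of PPARG and MLXIP was 0.998 each. HIF1A averaged 13.0 ± 7.78 and 12.8 ± 4.19, NCOR1, a corepressor, 9.24 ± 0.985 and 13.5 ± 5.26, and SREBF2, which drives sterol genes, 5.16 ± 2.89 and 12.7 ± 6.35. Hu 1, which holds many zeros, lay lowest of the 6 libraries in PPARG (with Hu 2), MLXIP, HIF1A and SREBF2.

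Fatty acid oxidation genes had a positive difference in 6 of 20 and a median of -0.14. The median was 0.14 without Hu 1 and with quantile normalization, with 11 and 12 of 20 positive. It was 0.06 with a common library sum, 0.15 with listed genes as a covariate and -0.70 without Hu 3, with 3 positive. The median of all genes moved as well. Relative to it, the list median was 0.14 as deposited, 0.13 without Hu 1 and 0.13 with quantile normalization. It was 0.14 with a common library sum, 0.12 with the covariate and -0.04 without Hu 3. PDK4, which spares glucose when fat is burned, averaged 34.4 ± 25.6 FPKM in Hu, against 30.2 ± 8.53 in Mongolian, ETFB 20.3 ± 17.3 and 13.0 ± 1.10, and HADH 9.57 ± 11.1 and 15.9 ± 4.39. CPT2, which loads fatty acids into the mitochondrial matrix, stood at 0, 0 and 0.697 in Hu, against 1.78, 0.856 and 1.32 in Mongolian, and the isomerase gene ECI1 at 0, 0 and 0.684 in Hu, against 1.04, 1.17 and 1.71 in Mongolian. Both were low in all libraries, and their 2 zeros in Hu fall in the same libraries as those of PLIN3.

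Fatty acid synthesis genes had a positive difference in 4 of 16 and a median of -0.54, with 2 positive and a median of -0.94 without Hu 3, and medians of -0.29 without Hu 1 and -0.27 without Mongolian 3. SCD, the desaturase that makes oleate for triglyceride, stood at 1.37, 1.24 and 3.67 FPKM in Hu, against 4.33, 4.65 and 7.46 in Mongolian. ACACA, which makes malonyl-CoA, stood at 0.313, 0.856 and 1.05 in Hu, against 1.996, 1.40 and 2.78 in Mongolian. The breeds did not overlap in either gene, and the limma adjusted p was 0.998 for each. SCD5, a related desaturase, had the lowest value of all lists, a log2 difference of -2.70 (standard error 0.91), at 0, 0 and 9.85 in Hu, against 8.34, 9.23 and 29.99 in Mongolian, with Hu 3 inside the Mongolian range. ME1 averaged 8.89 ± 6.50 and 7.07 ± 2.01, and ACLY, which supplies acetyl-CoA, 3.79 ± 3.20 and 5.82 ± 2.20.

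Hypoxia genes were included because low oxygen is known to fill droplets and to raise PLIN2 in many cells. Of 11 tested genes 2 had a positive difference, with a median of -0.35 as deposited. That sign rested on Mongolian 3: without it 7 of 11 were positive with a median of 0.17, when 34.0% of all genes were positive with a median of -0.23. The count was 5 of 11 without Hu 1 and with a common library sum, and 1 of 11 without Hu 3. ENO1, BNIP3 and ALDOA averaged 43.7 ± 17.2, 17.5 ± 9.88 and 17.5 ± 7.01 FPKM in Hu, against 63.7 ± 46.3, 32.4 ± 19.8 and 23.0 ± 16.9 in Mongolian, with Mongolian 3 highest in each. PFKFB3, a glycolytic regulator, stood at 0, 2.66 and 1.23 in Hu, against 8.36, 3.799 and 5.78 in Mongolian. Its limma adjusted p was 0.998.

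Markers of the cells that could carry droplets were read beside PLIN2. Of 13 adipocyte markers 1 was listed, CIDEC, at 0.652 FPKM in Hu 3 and 0 in the other 5 libraries, and the defining markers ADIPOQ and LEP, like PLIN1, were not listed by symbol. Of 13 macrophage markers 8 were listed, with summed levels of 16.2 to 36.9 in Hu and 7.61 to 73.5 in Mongolian. CD68 stood at 4.93, 19.3 and 7.42 in Hu, against 6.01, 29.1 and 3.57 in Mongolian, CSF1R reached 1.77 at most, and CD163 was not listed by symbol. Both sums overlapped between breeds, and the macrophage sum was highest in Mongolian 2.

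Steroid-producing cells had 9 of 10 markers listed, with sums of 69.5, 29.7 and 120 FPKM in Hu, against 33.2, 31.2 and 133 in Mongolian. STAR, which carries cholesterol into mitochondria, stood at 5.05, 7.28 and 18.9 in Hu, against 1.58, 7.50 and 1.75 in Mongolian, CYP11A1 at 8.04, 4.36 and 29.96 in Hu, against 5.50, 1.67 and 29.0 in Mongolian, and HSD3B1 at 6.94, 0 and 11.2 in Hu, against 2.67, 1.99 and 41.3 in Mongolian. FDX1, the ferredoxin that feeds electrons to CYP11A1, was higher in every Hu library, at 16.1, 6.55 and 27.2 against 4.60, 4.69 and 3.34, while FDXR, the reductase before it in that chain, was lower in every one, at 0.394, 1.05 and 1.12 against 1.22, 2.63 and 13.05. FDX1 and FDXR were singled out after their values were seen. The part of these cells in the level of PLIN2 was not tested.

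The remaining marker sums also overlapped between breeds, except lymphocyte markers, which were low. Granulosa markers summed to 44.4 to 274 FPKM in Hu and 67.1 to 105 in Mongolian, stroma to 954 to 1147 and 883 to 983, smooth muscle and pericytes to 588 to 1463 and 746 to 928, endothelium to 22.3 to 42.2 and 11.3 to 25.9, and surface epithelium to 3.77 to 35.9 and 7.12 to 39.2. Lymphocyte markers summed to 0.900 to 1.68 in Hu and 3.13 to 5.62 in Mongolian. That difference came mostly from PTPRC, the sole gene of the list to pass the filter, and PTPRC is not confined to lymphocytes. PTPRC stood at 1.22, 0 and 1.36 in Hu, against 2.15, 3.96 and 3.87 in Mongolian (limma adjusted p = 0.998). CD2, CD3E, CD3G and CD4 were each listed at 0 in several libraries. Oocyte markers reached 0.888 at most, with 2 of 11 listed, and red blood cell markers 5.94, with 2 of 10 listed. Of the granulosa markers, which define ovarian follicles, INHA, INHBA, FST and SERPINE2 were above 0 in all 6 libraries. FSHR was listed at 0 in Mongolian 1, Mongolian 2 and Hu 1. Of the 6 tested granulosa markers, 4 had a positive log2 difference and 2 a negative one, with a median of 0.35. HSD17B1, the lowest at -2.08, was singled out after its values were seen. It stood at 0, 0 and 0.629 in Hu, against 3.69, 2.46 and 6.52 in Mongolian (limma adjusted p = 0.998). Its values did not overlap, and 6.05% of all genes were lower in Hu in that way. AMH, CYP19A1, FOXL2 and INHBB were not listed by symbol.

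The genes that flank PLIN2 were read beside it. In the RefSeq annotation of the sheep assembly ARS-UI_Ramb_v3.0, where all 7 listed genes were matched by symbol, PLIN2 lies between the protein-coding genes HAUS6 and DENND4C, and PLIN5 lies next to PLIN4. HAUS6 stood at 1.10, 0 and 4.03 FPKM in Hu, against 1.00, 1.29 and 0.639 in Mongolian, and DENND4C at 1.14, 3.52 and 6.06 in Hu, against 2.08, 2.32 and 3.60 in Mongolian. Both overlapped between breeds, with log2 differences of 0.16 and 0.18 (standard errors 0.70 and 0.74). The build behind the deposited values is not given in the sources used here, so no coordinates are given.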

How the data were processed

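Ovary RNA of Hu and Mongolian sheep, 3 libraries each, was described through a table of FPKM values per gene that the authors deposited, with a column per library matched by the codes in the sample descriptions. The table of lncRNAs was not used here. RNA was taken up on columns and made into libraries with a SMARTer kit, per the labels' protocols; aligner, counter, genome build and filters were not given in the sources used here. Ratios of low values (under 2 FPKM) between libraries never piled up, with at most 0.566% of genes in any bin of width 0.2%, so whole reads could not be recovered and no count model was used, and identical values above 0 were found in no pair of libraries.

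Genes reaching 0.5 FPKM in 3 or more libraries were fitted on log2(FPKM + 1) with limma 3.58.1 in R 4.3.3 (eBayes with trend, breed as the factor, two-sided, Benjamini-Hochberg over 9971 genes, threshold 0.05). Such a scale understates changes of low genes, and the p-values measure only the spread between libraries, which may be technical. The members and lists were chosen with earlier results of these data known. Named genes were all listed members, the 3 most abundant tested genes of each list, list genes averaging 1 FPKM or more in either breed whose breeds did not overlap, and the 4 nearest profiles each to PLIN2, LPL and LIPE, of which 1 near PLIN2 is not reported here.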

Additional observations from a re-analysis of the deposited data

How the results depend on the processing

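PLIN2 kept a positive log2 difference under all 21 alternatives, from 1.62 to 2.43 over single libraries left out. That sign was fixed in advance wherever a setting changed only the filter, block or eBayes variance, or left out libraries. The count of genes called over the whole table, 0 as reported, was 633 with array weights (75 higher and 558 lower in Hu), 6 with Hu 1 and Hu 3 left out together and 0 to 4 with single libraries left out (2 without Hu 2, 4 without Hu 3). Over the 9 lipid lists it was 7 of 108 with array weights (6.48%, near the 6.35% of all genes under that setting; FABP7 higher in Hu and ACADL, FAF2, PRKAR2B, SCD5, BSCL2 and PPARG lower) and 0 under the other alternatives. The cause was not tested. List genes with a positive difference, 27 of 108 as reported, numbered 51 with quantile normalization, 45 with a common library sum, 48 with listed genes per library as a covariate and 17 to 51 with single libraries left out. The stricter filter left 34 list genes, 9 of them positive (26.5%, against 36.9% of all genes), and the set of genes above 0 in all 6 libraries left 54, 15 of them positive (27.8%, against 40.7%). Leaving out Hu 1 and Hu 3 leaves a single Hu library, assumed to vary like the Mongolian ones.

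With the replicate number as a block, 0 genes were called and the log2 difference of PLIN2 was 2.09. Deviations of same-numbered libraries correlated at -0.01, -0.03 and -0.18 over genes, so no shared effect of the numbers was seen. With deviations centred within each breed over 3 libraries, these values cannot settle whether libraries were handled in pairs. Depth is unknown, which limits what a listed 0 can show for PLIN3, PLIN4, PLIN5, DGAT1, LIPE and LPL.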
